A study of Arabidopsis thaliana with 6 samples.

Results

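A set of 52 nuclear genes of *Arabidopsis thaliana* was almost without reads in wild-type (WT) seedlings and was read in every *nol12-4* library. The genes were chosen on the deposited raw counts: a nuclear identifier entered the set with 6 or fewer counts summed over the 3 WT libraries and 10 or more counts in each of the 3 *nol12-4* libraries, and 52 of 36899 nuclear identifiers did so. 1 further gene met these limits and is not reported here. With the genotypes exchanged, the same limits gave 19 genes. Since the counts themselves chose the 52 genes, their difference between the genotypes is given below as a description, without a test.

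The libraries were made from rRNA-depleted total RNA of 14-day-old seedlings, 3 biological replicates of the *nol12-4* line and 3 of WT Col-0. The *nol12-4* line is a single homozygous T-DNA insertion line in *AtNOL12* (AT1G11240), which encodes a nucleolar protein of pre-rRNA processing, in the Col-0 background, so the insertion cannot be told apart from any other change carried by that line. Both genotypes were grown on MS plates in long days. *AtNOL12* itself had 1186, 770 and 2142 counts in *nol12-4* and 663, 642 and 894 counts in WT, and a count over the whole gene does not part the sides of an insertion. Total counts on genes were 56627497 to 74162060 in *nol12-4* and 67444306 to 75001252 in WT, and organelle genes took 47.0 to 56.6% of them.

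Plant genomes keep most transposable elements silent by DNA methylation, histone marks and small RNAs. LTR retrotransposons, a major class of these elements, are bounded by a pair of direct repeats (long terminal repeats, LTRs) and copy themselves through RNA. Reverse transcription starts from a host tRNA, often the initiator methionine tRNA, that pairs with a primer binding site just behind the upstream repeat. RefSeq files many such elements as pseudogenes. It does so for *RE2* (AT4G02960), which it describes as a copia-type retrotransposon with LTRs and a polyprotein.

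RefSeq (assembly TAIR10.1) gives 33 of the 52 genes as protein-coding, 14 as pseudogenes, 3 as transcribed pseudogenes and 2 as long non-coding RNAs (lncRNAs). Pseudogenes were 26.9% of the set. They were 0.826% of the 20699 nuclear genes that had 10 or more counts in each *nol12-4* library (171 genes), and 10.6% of all nuclear identifiers. Neither comparison group carries the WT limit of the rule, and that limit by itself favours genes with few reads. Of the 3889 pseudogenes outside the set, 3069 had no count in any library. No enrichment is therefore read from these shares. The genes lay on all chromosomes, with 8, 11, 9, 10 and 14 on chromosomes 1 to 5.

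Of the 14 pseudogenes, 8 were enclosed by direct repeats of at least 100 bp and 90% identity, against 538 (13.8%) of the 3903 nuclear pseudogenes. The 12 letters TGGTATCAGAGC, which are complementary to the 3′ end, CCA included, of 8 of the 10 nuclear initiator-type methionine tRNA genes (72 bases, beginning with A), were found in the gene or the 2 kb before it for 7 of the 14, against 7.56% of all pseudogenes. These shares describe the sequence and were not tested. The limits of the rule were not applied to the pseudogenes compared, most of which had no count, so no enrichment is read from them. The junctions of 7 elements are printed because they show this feature where it lies. Each line gives the end of the upstream repeat and the bases that follow it, read 5′ to 3′ on the strand of the gene from the RefSeq TAIR10.1 genome, with capitals for the longest stretch that matches the 12 letters.
AT2G17115, chr2:7454089-7454148, minus strand: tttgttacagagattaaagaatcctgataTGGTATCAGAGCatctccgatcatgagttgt
AT3G23725, chr3:8538147-8538206, plus strand: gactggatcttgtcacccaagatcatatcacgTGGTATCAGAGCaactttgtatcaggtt
AT3G32195, chr3:13165100-13165159, plus strand: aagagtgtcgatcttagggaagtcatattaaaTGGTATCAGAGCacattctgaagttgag
AT3G60170, chr3:22232387-22232446, plus strand: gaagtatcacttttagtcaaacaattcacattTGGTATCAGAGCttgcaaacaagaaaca
*RE2* (AT4G02960), chr4:1317026-1317085, minus strand: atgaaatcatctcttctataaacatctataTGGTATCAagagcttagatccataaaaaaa
AT4G07850, chr4:4671290-4671349, plus strand: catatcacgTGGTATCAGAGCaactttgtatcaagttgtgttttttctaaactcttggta
AT5G35965, chr5:14118253-14118312, minus strand: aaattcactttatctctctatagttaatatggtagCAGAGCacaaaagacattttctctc

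All 12 letters were found in 5 of these elements. In 4 of them they began within 2 bases of the called end of the upstream repeat, and in AT4G07850 they lay inside the called repeat, shortly before its end. *RE2* matched over 8 and AT5G35965 over 6 of them. In AT2G06890, the remaining element with direct repeats, no more than 4 letters matched at that place, and its junction is not printed.

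**Figure D1:**
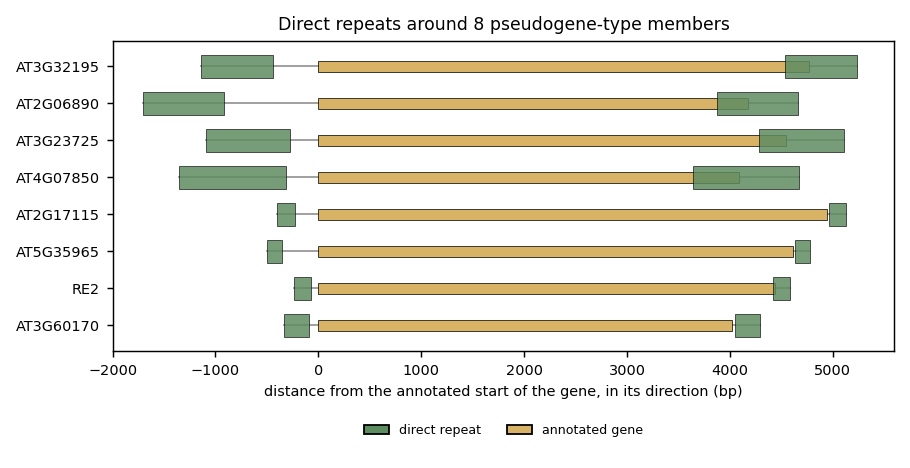
Annotated genes (tan) and the direct repeats found around them (green) for 8 members of type pseudogene, drawn to scale in bp from the annotated start of each gene. The repeats are 142 to 1037 bp long and the elements 4630 to 6381 bp.

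The repeat-bounded elements were of different lengths and partly related to each other. The repeats of AT3G60170 were 244 bp long and 100% identical, and those of *RE2* were 166 bp long and 99.4% identical. The lowest identity was 93.0% over 142 bp, in AT5G35965. AT3G23725 and AT4G07850 were 98.1% identical over 1985 bp, and AT2G06890 matched AT3G23725 at 72.9% over 3795 bp and AT4G07850 at 76.9% over 1971 bp. AT3G32195 matched AT2G06890 at 74.6% over 1400 bp, so that 4 of the 8 form one group of related sequences. AT2G17115 and AT5G35965 shared 67.3% over 1688 bp. No match above the limit of the search (e-value 1e-10) was found between *RE2* or AT3G60170 and another member.

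AT5G35965 (chr5:14113311-14117927) was the highest of the repeat-bounded elements, with 189, 141 and 242 counts in *nol12-4* replicates 1, 2 and 3, against 0, 1 and 0 counts in WT. The summed counts, scaled by library size, were 559-fold higher in *nol12-4* (95% exact binomial interval 100.003 to 22134, for counting error only). Its level was 2.70 ± 0.38 CPM, a count divided by library size, in *nol12-4* (SD, n = 3).

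AT3G23725 (chr3:8538452-8542993) had 124, 84 and 94 counts in *nol12-4* and none in WT, at least 98.5-fold higher when WT is set to a floor of 3 counts over its 3 libraries. Its relative AT4G07850 had 19, 27 and 22 counts in *nol12-4*, against 1, 1 and 4 counts in WT, an 11.1-fold ratio. Reads that fit both copies were not counted for either, since the authors' counting left out read pairs aligned to more than 1 place (10.3 to 12.1% of a library).

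*RE2* (chr4:1312547-1316983) had 51, 78 and 70 counts in *nol12-4*, against 1, 0 and 1 counts in WT, a ratio of 97.3 (26.6 to 809). AT3G60170 had 53, 83 and 49 counts in *nol12-4* and none in WT, at least 60.3-fold higher. Both elements were highest in *nol12-4* replicate 2.

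AT2G06890 had 50, 56 and 38 counts in *nol12-4*, AT3G32195 had 26, 24 and 16, and AT2G17115 had 30, 12 and 18, with no count in WT in any of these 3 elements. Over the 8 elements together, the libraries held 542, 505 and 549 counts in *nol12-4* replicates 1, 2 and 3, against 2, 2 and 5 counts in WT. The total in counts therefore differed little between the *nol12-4* replicates, but AT5G35965 held 189, 141 and 242 of these counts. It was the only element of the 8 whose replicate 3 was above the mean of replicates 1 and 2 in CPM (ratio 1.26). 5 of the 8 had no count in WT.

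**Figure D2:**
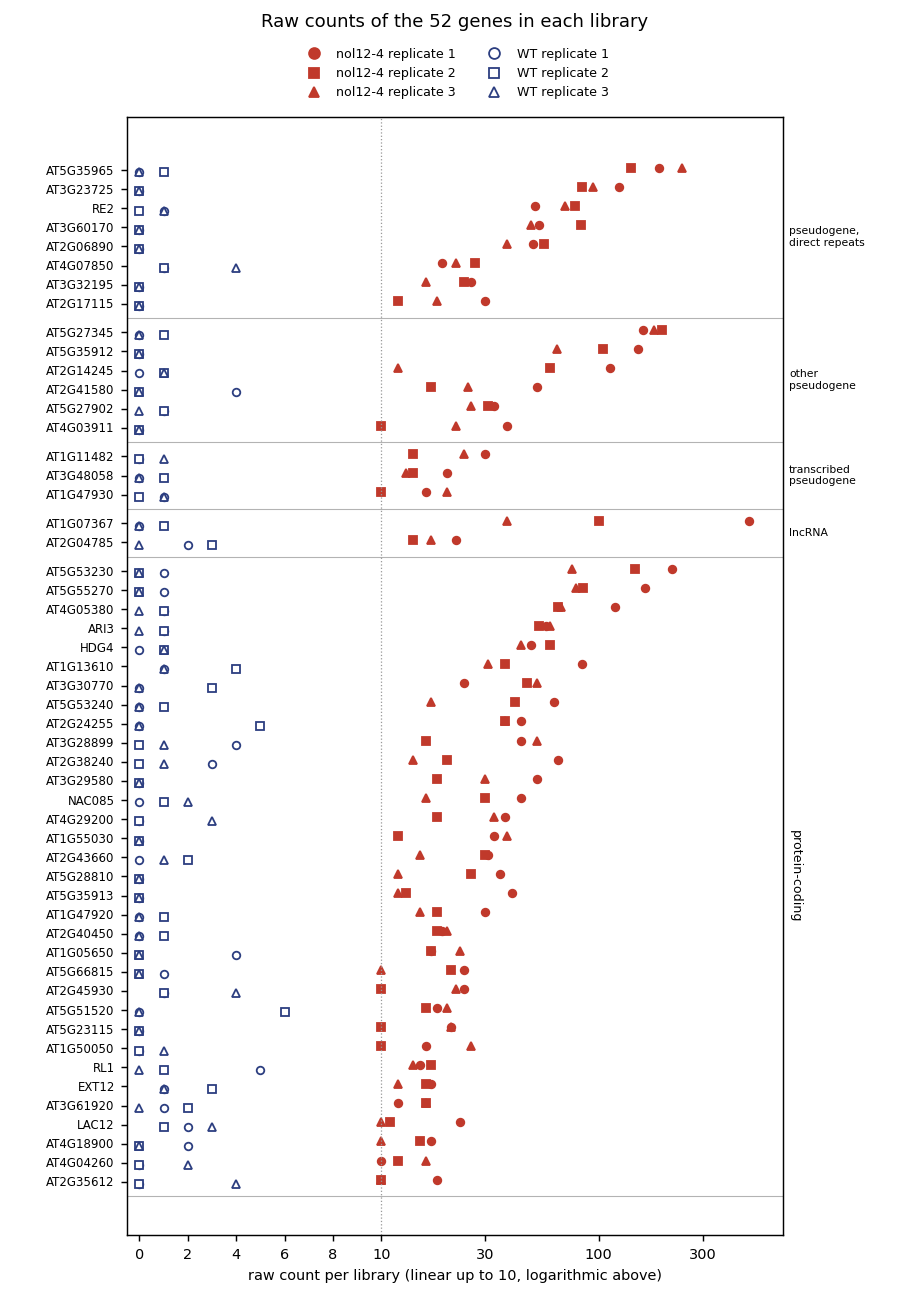
Raw counts of each of the 52 genes, one row per gene, in *nol12-4* (filled) and WT (open) libraries, with marker shape for the replicate number and an axis that is linear up to 10 and logarithmic above. By the rule of choice no *nol12-4* count is under the dotted line at 10 and no WT sum is above 6. The highest single count is 489, of AT1G07367 in *nol12-4* replicate 1.

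The other 6 pseudogenes had no such repeats within 3000 bp. AT5G27345 (chr5:9641505-9643917) had the highest level of the 6, with 159, 195 and 180 counts in *nol12-4*, against 0, 1 and 0 counts in WT, a ratio of 522 (93.3 to 20666). AT5G35912 (chr5:14037231-14038922) had 152, 105 and 64 counts in *nol12-4* and none in WT, at least 105-fold higher. Its neighbour AT5G35913, a protein-coding member of unknown function that lies 423 bp upstream on the same strand, had 40, 13 and 12 counts in *nol12-4* and none in WT.

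AT2G14245 had 113, 60 and 12 counts in *nol12-4*, against 0, 1 and 1 counts in WT, and *nol12-4* replicate 3 was far under the other replicates. AT2G41580 had 52, 17 and 25 counts in *nol12-4*, against 4, 0 and 0 counts in WT. AT4G03911, which has matching stretches in several other genes, had 38, 10 and 22 counts in *nol12-4* and none in WT. AT5G27902 had 33, 31 and 26 counts in *nol12-4*, against 1, 1 and 0 counts in WT.

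AT5G27902 has a copy, the pseudogene AT5G35575, that was 98.9% identical over its whole 2681 bp. This copy is not a member, with 81, 74 and 117 counts in *nol12-4*, against 13, 3 and 0 counts in WT. In edgeR's quasi-likelihood test its log2 fold change was 4.04 ± 0.87 (SE), with an adjusted p of 0.081, and all 3 *nol12-4* libraries were above all 3 WT libraries.

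A matching stretch of at least 50% of the length and 80% identity elsewhere in the genome was found for 20 members. Of the 50 such stretches, most were assigned to 37 annotated genes that are not members. Some of these genes held more than 1 stretch, and 4 stretches were assigned to no annotated gene. Of these 37 genes, 18 had no count in any of the 6 libraries and 5 had 10 or more counts in each *nol12-4* library. For the repeat-bounded elements, 4 members had copies in 6 annotated genes, and those genes held 2 counts in all 6 libraries together. AT2G06890, for instance, was 95.6% identical to AT4G07668 over 2523 bp, which had no count. So the reads lay at the member and not at these copies, as far as reads with 1 place can show.

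Pseudogenes outside the set were read at all in few cases. Of 3889 of them, 3069 had no count in any library and 180 passed edgeR's filter on low counts. Of these, 3 were called higher in *nol12-4* and 0 lower (edgeR's quasi-likelihood test, adjusted p under 0.05). Without adjustment, a p under 0.05 was reached by 40 higher and 10 lower genes. DESeq2 called 34 higher and 9 lower of 339, where it called 6.23% of all genes higher and 3.22% lower. Among all 21705 genes tested, edgeR called 0.226% higher and 0.0691% lower, and without adjustment the shares were 12.1% and 7.91%. The median log2 fold change was 0.29 over the 180 pseudogenes and -0.01 over all genes tested.

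The 3 called pseudogenes outside the set had some reads in WT. AT2G26630 had 369, 319 and 246 counts in *nol12-4*, against 2, 8 and 15 counts in WT, a log2 fold change of 5.19 ± 0.59 (SE; edgeR adjusted p = 0.031). AT5G19097 had 135, 78 and 84 counts in *nol12-4*, against 8, 11 and 7 counts in WT, and AT3G42806 had 6628, 3948 and 6249 counts in *nol12-4*, against 2076, 1936 and 2281 counts in WT. In none of the 3 did the genotypes overlap. With any of replicates 1 and 2 of either genotype left out, edgeR made 0 calls over all genes, so these 3 calls were lost as well.

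The most closely related protein-coding members carry the domain of unknown function DUF295. AT5G53230 (chr5:21598848-21600008) had 216, 147 and 75 counts in *nol12-4*, against 1, 0 and 0 counts in WT, a ratio of 428 (76.5 to 16958). AT5G55270 (chr5:22419147-22420518) had 163, 85 and 79 counts in *nol12-4*, against 1, 0 and 0 counts in WT, a ratio of 320 (57.0 to 12670). AT5G53240 (chr5:21601481-21602739), which lies 1472 bp downstream of AT5G53230 on the same strand, had 62, 41 and 17 counts in *nol12-4*, against 0, 1 and 0 counts in WT. All 3 genes were highest in *nol12-4* replicate 1.

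The 3 proteins were 61.2 to 63.8% identical to each other. The transcribed pseudogene AT1G11482 (chr1:3867405-3868870) belonged to the same sequence group, at 70.2 to 71.9% DNA identity over 727 to 856 bp. It had 30, 14 and 24 counts in *nol12-4*, against 0, 0 and 1 counts in WT. AT2G45930, an uncharacterized protein with 30.9% identity to AT5G53240 over 223 residues, had 24, 10 and 22 counts in *nol12-4*, against 1, 1 and 4 counts in WT.

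RefSeq names DUF295 in the product of 69 nuclear genes, of which 3 are members. Of the other 66, 26 had no count in any library, 11 had 10 or more counts in each *nol12-4* library, and 15 were tested. edgeR called 0 of those 15 in either direction. By the unadjusted p it had 3 higher and 0 lower, where the shares over all genes tested were 12.1% and 7.91%. The 26 genes without a count could not be called by either tool, so the 66 are no base for a share. Where DESeq2 called 6.23% of all genes it tested higher and 3.22% lower, it called 3 DUF295 genes outside the set higher and 0 lower. These were *SDC* (AT2G17690), described with the silent loci, AT1G30170 with 36, 39 and 4 counts in *nol12-4*, against 0, 0 and 3 counts in WT (DESeq2 adjusted p = 0.0133, not tested by edgeR), and AT4G13680 with 35, 20 and 13 counts in *nol12-4*, against 4, 1 and 4 counts in WT (log2 fold change 2.85 ± 0.70 SE; edgeR adjusted p = 0.097; DESeq2 adjusted p = 0.0171). The last pair were chosen after their values were seen. The closest relative of AT5G55270, AT5G55880 (77.0% protein identity), had no count in any library, and 3 copies of AT5G55270 in the genome, AT5G54320, AT5G55880 and AT5G55890, had none either.

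The promoter windows of the 3 DUF295 genes are printed because these genes were read together and share sequence there. Each window holds the 250 bases before and the 50 bases after the annotated start, plus strand, RefSeq TAIR10.1, with the letters TAGGGTTT in capitals. This is the reverse complement of AAACCCTA, known as the telo box, which occurs in many plant promoters of ribosomal protein genes.
AT5G53230, chr5:21598598-21598897: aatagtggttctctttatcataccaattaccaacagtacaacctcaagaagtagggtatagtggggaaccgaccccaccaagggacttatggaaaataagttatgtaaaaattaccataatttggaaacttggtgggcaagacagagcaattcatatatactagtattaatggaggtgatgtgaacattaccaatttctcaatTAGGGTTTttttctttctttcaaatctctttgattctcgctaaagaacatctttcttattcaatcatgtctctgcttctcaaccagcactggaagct
AT5G53240, chr5:21601231-21601530: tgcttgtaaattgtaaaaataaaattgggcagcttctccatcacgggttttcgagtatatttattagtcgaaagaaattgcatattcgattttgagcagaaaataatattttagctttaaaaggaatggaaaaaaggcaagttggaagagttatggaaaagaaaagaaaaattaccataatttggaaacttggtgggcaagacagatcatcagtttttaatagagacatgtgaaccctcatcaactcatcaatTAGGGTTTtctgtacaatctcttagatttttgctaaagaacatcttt
AT5G55270, chr5:22418897-22419196: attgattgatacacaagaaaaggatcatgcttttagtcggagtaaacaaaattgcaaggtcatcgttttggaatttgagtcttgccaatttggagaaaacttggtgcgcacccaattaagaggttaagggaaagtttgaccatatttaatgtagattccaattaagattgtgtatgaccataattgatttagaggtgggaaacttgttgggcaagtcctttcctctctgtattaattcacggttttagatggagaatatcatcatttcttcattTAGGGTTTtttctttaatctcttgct

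The letters began 47 bases before the annotated start in AT5G53230, and at bases 4 and 25 behind it in AT5G53240 and AT5G55270. AT5G53230 and AT5G53240 also shared an unbroken run of 40 bases, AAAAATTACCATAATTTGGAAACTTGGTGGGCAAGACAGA (chr5:21598704-21598743 and chr5:21601397-21601436). On either strand, AAACCCTA was found in 8 of the 52 promoter windows (15.4%) and in 6.15% of the 36899 windows of the same length. The other motifs searched, both strands, were the core promoter letters TATAAA in 17 members (32.7%, against 48.8% of all windows), the evening element AAAATATCT in 1 (1.92%, against 2.51%), the G-box CACGTG in 1 (1.92%, against 6.53%) and the letters TGGGCC in 3 (5.77%, against 13.1%). The 8 windows with AAACCCTA include those of the 3 related DUF295 genes, which are not independent of each other. A match describes these letters only, and the shares were not tested.

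The next members carry domains that modify other proteins or bind them. *ARI3* (AT3G27710), of the RING-between-RING family of ubiquitin ligases, had 57, 53 and 60 counts in *nol12-4*, against 1, 1 and 0 counts in WT, a ratio of 83.1 (22.7 to 692). The neighbouring copy *ARI4* (AT3G27720), 87.9% identical over 1421 bp, had no count in any library, and the closest protein, *ARI1*, had a log2 fold change of -0.29 ± 0.13 (SE; edgeR adjusted p = 0.261). *ARI3* differed by 1.17-fold between its highest and lowest *nol12-4* library in CPM.

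AT5G28810, a Ulp1 protease family member, had 35, 26 and 12 counts in *nol12-4* and none in WT, at least 23.8-fold higher. Ulp1 proteases cleave the small modifier SUMO, and in plants related sequences also occur inside Mutator-like transposons. Its closest paralog AT5G45570 (90.7% protein identity over 248 residues) had 233, 160 and 180 counts in *nol12-4*, against 0, 6 and 3 counts in WT. It was called higher by edgeR (log2 fold change 5.90 ± 0.69 SE, adjusted p = 0.031) and is not a member because its WT sum was above 6. Another copy, AT5G28235, had 6, 12 and 1 counts in *nol12-4* and none in WT, and copies AT3G32966 and AT4G08430 had 1 count between them in all libraries.

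AT2G24255, an F-box and kelch-repeat protein, had 44, 37 and 37 counts in *nol12-4*, against 0, 5 and 0 counts in WT. F-box proteins select the substrates of a class of ubiquitin ligases. All WT reads of this gene came from WT replicate 2. AT3G29580, with a MATH domain, had 52, 18 and 30 counts in *nol12-4* and none in WT, and AT2G40450, with a BTB/POZ domain, had 19, 18 and 20 counts in *nol12-4*, against 0, 1 and 0 counts in WT. AT1G55030, annotated as RNI-like, had 33, 12 and 38 counts in *nol12-4* and none in WT. Of the 171 other genes annotated as RNI-like, 89 were tested and edgeR called 0. By the unadjusted p it had 11 higher and 5 lower, where the shares over all genes tested were 12.1% and 7.91%. DESeq2 called 5 higher and 4 lower, where it called 6.23% of all genes it tested higher and 3.22% lower. The 171 are no base for a share, since 46 of them had no count in any library. The second RNI-like member, AT1G47920, had 30, 18 and 15 counts in *nol12-4*, against 0, 1 and 0 counts in WT, and lies 338 bp from the transcribed pseudogene AT1G47930, which had 16, 10 and 20 counts in *nol12-4*, against 1, 0 and 1 counts in WT.

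4 members encode proteins that act on DNA or chromatin. *HDG4* (AT4G17710), a homeodomain-leucine zipper factor of class IV, had 49, 60 and 44 counts in *nol12-4*, against 0, 1 and 1 counts in WT, a ratio of 74.8 (20.4 to 623). *NAC085* (AT5G14490) had 44, 30 and 16 counts in *nol12-4*, against 0, 1 and 2 counts in WT, a ratio of 29.3 (9.72 to 145). NAC085 and its closest relative NAC044 are known for holding the cell cycle in G2 after DNA damage. *NAC044* (63.7% protein identity) had 483, 331 and 348 counts in *nol12-4*, against 25, 41 and 98 counts in WT, so that the genotypes did not overlap. Its log2 fold change was 2.78 ± 0.50 (SE), which missed the threshold in edgeR (adjusted p = 0.064) and passed it in DESeq2 (adjusted p = 2.43e-06).

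*RL1* (AT4G39250), a small MYB-related protein, had 15, 17 and 14 counts in *nol12-4*, against 5, 1 and 0 counts in WT. AT4G04260, with a BAH domain that in related proteins reads histone marks, had 10, 12 and 16 counts in *nol12-4*, against 0, 0 and 2 counts in WT. The closest paralog of AT4G04260 is *EBS* (82.6% protein identity), which had a log2 fold change of 0.12 ± 0.13 (SE; edgeR adjusted p = 0.654).

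**Figure D3:**
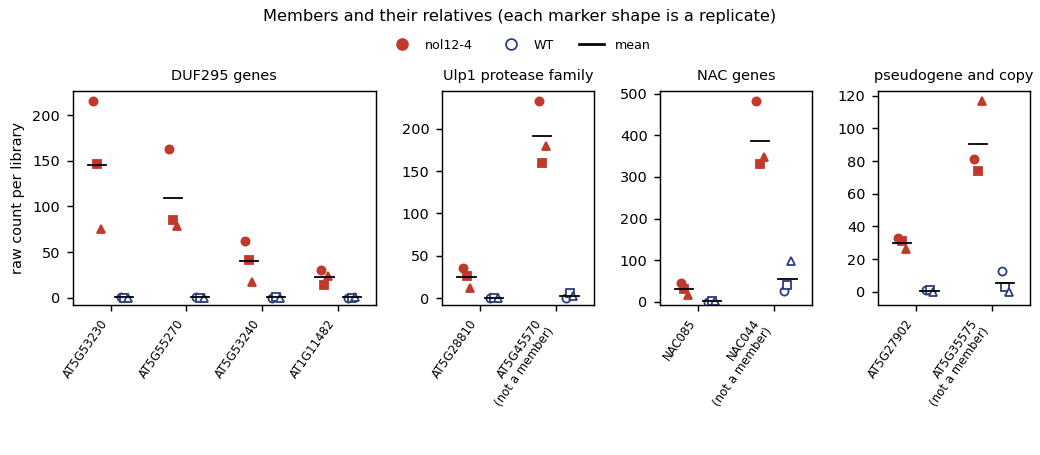
Raw counts per library of members and of relatives outside the set, with *nol12-4* left (filled) and WT right (open) for each gene, marker shape for the replicate number and a line at the mean of 3 libraries. AT5G45570 (160 to 233 counts in *nol12-4*, 0 to 6 in WT) and NAC044 (331 to 483 in *nol12-4*, 25 to 98 in WT) differ in the same direction as the member beside them.

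Several members have products of the cell wall. *EXT12* (AT4G13390), an extensin, had 17, 16 and 12 counts in *nol12-4*, against 1, 3 and 1 counts in WT. *LAC12* (AT5G05390), a laccase of the kind that oxidises lignin precursors, had 23, 11 and 10 counts in *nol12-4*, against 2, 1 and 3 counts in WT, and its 7.17-fold ratio was the lowest of the set. AT5G51520, an inhibitor of invertase or pectin methylesterase, had 18, 16 and 20 counts in *nol12-4*, against 0, 6 and 0 counts in WT. The WT reads of AT5G51520 all came from replicate 2.

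AT1G05650, annotated as pectin lyase-like, had 17, 17 and 23 counts in *nol12-4*, against 4, 0 and 0 counts in WT. Its tandem neighbour and closest paralog AT1G05660 (89.1% protein identity) had 9, 19 and 46 counts in *nol12-4*, against 36, 39 and 18 counts in WT, and its genotypes overlapped. AT2G43660, with a carbohydrate-binding X8 domain, had 31, 30 and 15 counts in *nol12-4*, against 0, 2 and 1 counts in WT. *LAC5*, the closest paralog of *LAC12*, had a log2 fold change of 1.11 ± 0.40 (SE; edgeR adjusted p = 0.185), and AT4G25250, that of AT5G51520, had 2.03 ± 0.56 (SE; edgeR adjusted p = 0.116; DESeq2 adjusted p = 0.0094).

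Markers of root cells were at higher levels in the same libraries. Summed over the 8 root genes listed, among them *COBL9*, *EXPA7* and *PRP3* of root hairs and *CASP1* of the endodermis, the level was 18.3 to 29.9 CPM in *nol12-4* and 8.47 to 11.6 CPM in WT. All 8 were read in every library. edgeR called 0 of the 8 and DESeq2 called 4 higher, where it called 6.23% of all genes higher. By the unadjusted p, edgeR had 5 higher and 0 lower, where 12.1% of all genes tested were higher and 7.91% lower. In whole seedlings more cells of a type and more RNA per cell cannot be told apart, and the part of root cells in the values of the wall genes was not tested.

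The enzymes and other proteins were a mixed group. AT4G05380 (chr4:2736109-2738255), a P-loop nucleoside triphosphate hydrolase, had 119, 65 and 67 counts in *nol12-4*, against 1, 1 and 0 counts in WT, a ratio of 123 (33.6 to 1019). AT1G13610, of the alpha/beta hydrolase superfamily, had 84, 37 and 31 counts in *nol12-4*, against 1, 4 and 1 counts in WT. AT3G30770, an aspartyl protease, had 24, 47 and 52 counts in *nol12-4*, against 0, 3 and 0 counts in WT, and its lowest *nol12-4* library was replicate 1.

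AT2G38240, a 2-oxoglutarate and Fe(II)-dependent oxygenase, had 65, 20 and 14 counts in *nol12-4*, against 3, 0 and 1 counts in WT. Its closest paralog AT5G05600 (56.9% protein identity) had 1525, 1137 and 1238 counts in *nol12-4*, against 766, 674 and 691 counts in WT, with a log2 fold change of 0.85 ± 0.15 (SE; edgeR adjusted p = 0.062; DESeq2 adjusted p = 4.05e-04). Its *nol12-4* and WT libraries did not overlap. AT4G29200 (related to beta-galactosidase) had 37, 18 and 33 counts in *nol12-4*, against 0, 0 and 3 counts in WT, and AT1G50050 (CAP superfamily) had 16, 10 and 26 counts in *nol12-4*, against 0, 0 and 1 counts in WT. AT2G35612 (copper amine oxidase family) had 18, 10 and 10 counts in *nol12-4*, against 0, 0 and 4 counts in WT, all of them in replicate 3.

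The last members with a described product or relative were near the lower limit. AT4G18900, with WD40 repeats, had 17, 15 and 10 counts in *nol12-4*, against 2, 0 and 0 counts in WT, and AT3G61920, with the product UvrABC system protein C, had 12, 16 and 16 counts in *nol12-4*, against 1, 2 and 0 counts in WT. The transcribed pseudogene AT3G48058 had 20, 14 and 13 counts in *nol12-4*, against 0, 1 and 0 counts in WT. AT3G48058 matches AT3G48040 at 92.2% over 295 bp, and AT3G48040 was read in all libraries, with 419, 341 and 428 counts in *nol12-4*, against 385, 373 and 327 counts in WT.

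The small uncharacterized genes included AT5G66815, which had 24, 21 and 10 counts in *nol12-4*, against 1, 0 and 0 counts in WT, and AT3G28899, which had 44, 16 and 52 counts in *nol12-4*, against 4, 0 and 1 counts in WT. It overlaps AT3G28900, a ribosomal protein L34e gene, on the other strand. AT3G28900 had 3250, 2784 and 3406 counts in *nol12-4*, against 1855, 2127 and 1896 counts in WT, and the authors' counting used the strand. AT5G23115 had 21, 10 and 21 counts in *nol12-4* and none in WT. RefSeq gives it a span of 29 bp, so its level per length is not given.

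The lncRNA AT1G07367 (chr1:17388989-17389500) had the largest count of the set, with 489, 100 and 38 counts in *nol12-4* replicates 1, 2 and 3, against 0, 1 and 0 counts in WT. The ratio of sums was 613 (110 to 24258), but the *nol12-4* libraries differed by 13.5-fold in CPM, the widest spread of the 52 genes. The other lncRNA, AT2G04785, had 22, 14 and 17 counts in *nol12-4*, against 2, 3 and 0 counts in WT.

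AT1G07367 and AT2G14245 each lie near a gene that varied in the same libraries. AT1G47400, 2503 bp from AT1G07367 on the same strand, had 2258, 636 and 495 counts in *nol12-4*, against 168, 193 and 32 counts in WT (log2 fold change 3.06 ± 0.78 SE; edgeR adjusted p = 0.101; DESeq2 adjusted p = 2.42e-04). AT2G14247, 1779 bp from AT2G14245 on the other strand, had 3892, 1389 and 1229 counts in *nol12-4*, against 267, 256 and 35 counts in WT (log2 fold change 3.51 ± 0.76 SE; edgeR adjusted p = 0.083; DESeq2 adjusted p = 7.49e-06). In each of these 4 genes *nol12-4* replicate 1 was the highest library and replicate 3 the lowest of the *nol12-4* libraries, in counts. A nearer gene, the pseudogene AT1G47405, lies 178 bp from AT1G07367 on the same strand. AT1G47405 had 128, 35 and 0 counts in *nol12-4* and none in WT, and edgeR did not test it.

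Levels were low throughout. The mean *nol12-4* level of a member was 0.182 to 2.95 CPM, with a median of 0.379 CPM, while the median over the tested nuclear genes was 7.83 CPM. Per kb of exon the highest levels were 5.84 CPM for AT1G07367, 1.84 for AT5G53230 and 1.55 for AT3G28899, leaving out AT5G23115, and the lowest was 0.0570 for AT2G17115. In all, the 52 genes held 3146, 2047 and 1919 counts in *nol12-4* replicates 1, 2 and 3, against 39, 45 and 33 counts in WT. Of the 52, 12 had no count in WT, 26 had a WT sum of 1 to 3, and 14 had a WT sum of 4 to 6. For the 12 genes without a count in WT, the bound on the fold was 17.0 to 105.

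The members did not vary alike between the *nol12-4* libraries. The ratio of the highest to the lowest *nol12-4* library, in CPM, had a median of 1.96 and was under 2 for 30 genes and over 3 for 8. Replicate 1 was the highest library for 26 genes, replicate 2 for 19 and replicate 3 for 7, and replicate 3 was the lowest for 29. Replicate 3 was under 50% of the mean of replicates 1 and 2 for 12 genes, among them AT1G07367, AT2G14245, AT5G53230, AT5G53240 and *NAC085*. None of the 8 repeat-bounded elements was among these 12, but the lowest of them, AT3G32195, had a ratio of 0.54 to that mean. The median of this ratio was 0.77 over the 8 elements and 0.71 over all members. No difference between the elements and the other members is therefore read from this.

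The clock genes part *nol12-4* replicate 3 from replicates 1 and 2, a sharper split than the median ratio of 0.71 over the members. *CCA1*, a morning clock gene, had 7122, 5506 and 189 counts in *nol12-4*, against 78, 102 and 236 counts in WT. *LHY* had 4314, 2896 and 75 counts in *nol12-4*, against 80, 83 and 71 counts in WT, so *nol12-4* replicate 3 sat within or near the WT range. The evening gene *TOC1* had 1082, 764 and 9247 counts in *nol12-4*, against 9237, 8389 and 9481 counts in WT. The summed level of the members was 42.7, 35.0 and 24.8 CPM in *nol12-4* replicates 1, 2 and 3, and 0.549, 0.674 and 0.492 CPM in WT, so the members were also read in the library whose clock genes resembled WT. The rule required that of each gene, and the part of the clock in the spread among the *nol12-4* libraries was not tested.

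**Figure D4:**
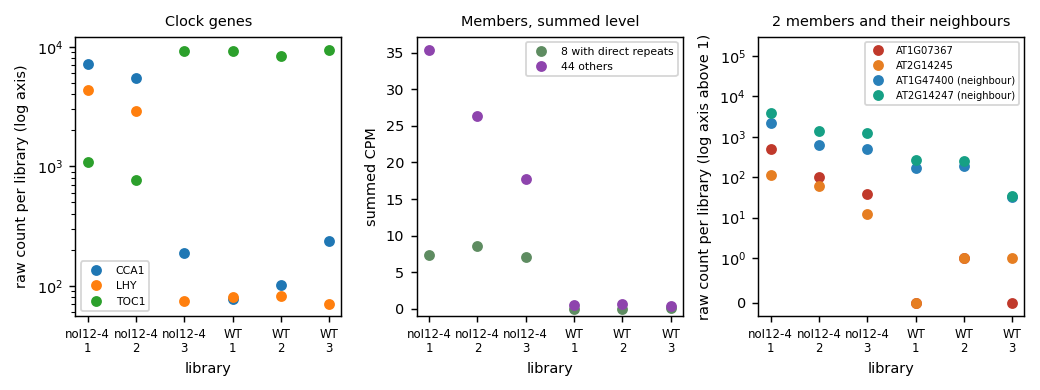
Left, raw counts of CCA1, LHY and TOC1 per library on a log axis. Middle, summed level (CPM) of the 8 repeat-bounded elements and of the 44 other members. Right, raw counts of 2 members and of a gene near each, on a symmetric log axis. *nol12-4* replicate 3 is close to WT for the clock genes. For the members, the rule of choice itself sets every *nol12-4* library above WT in counts.

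edgeR's filter on low counts passed 47 of the 52 genes, and their fitted log2 fold changes were 2.87 to 9.75. The upper values belong to genes with 0 or 1 counts in WT, depend on the fit's prior count and are no bound. edgeR called 10 of the 47 at an adjusted p under 0.05, where it called 0.226% of all genes tested as higher, and DESeq2 called 49 of 52, where it called 6.23%. Since the rule used this contrast, nothing is read from these counts.

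The limits of the rule cut through a continuous range. Just inside them were 18 genes, of which 10 had a WT sum of 5 or 6 and 10 had a lowest *nol12-4* count of 10. Just outside were 28 genes, 20 with a WT sum of 7 or 8 and 8 with a lowest *nol12-4* count of 9. AT4G05255, for example, had 9, 10 and 9 counts in *nol12-4* and none in WT, and AT5G66740 had 80, 106 and 13 counts in *nol12-4*, against 1, 0 and 6 counts in WT. AT2G41570, a pseudogene 810 bp from the member AT2G41580, was left out by a WT sum of 7, with 13, 25 and 34 counts in *nol12-4*, against 5, 0 and 2 counts in WT.

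The surroundings of the members were described by the share of pseudogenes among all genes within 500 kb, which is high around the centromeres. The median share was 25.9% for the 14 pseudogene members and 2.83% for the 38 other members. It was 1.59% for the nuclear genes with 10 or more counts in each *nol12-4* library and 2.21% for all nuclear identifiers. A share above 25% was found for 13 of the 52 members (25%), against 4.16% of the genes with 10 or more counts in each *nol12-4* library and 14.2% of all. The WT limit of the rule was not applied to either comparison group, so no enrichment is read from these differences. AT4G07850 (74.3%), AT3G32195 (72.7%) and the protein-coding AT3G30770 (69.8%) had the highest shares, while *RE2* (14.3%), AT3G23725 (3.40%) and AT3G60170 (2.35%) lay among few pseudogenes.

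**Figure D5:**
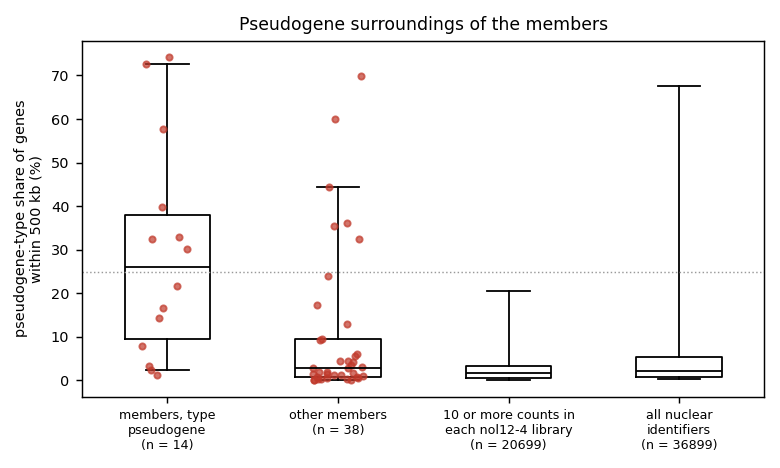
Share of pseudogenes among the genes within 500 kb, for members of type pseudogene, other members, nuclear genes with 10 or more counts in each *nol12-4* library, and all nuclear identifiers. Boxes span the quartiles with a line at the median, whiskers run from the 5th to the 95th percentile, points are single members and the dotted line is at 25%. The medians are 25.9, 2.83, 1.59 and 2.21%.

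Genes next to the members were compared to show whether nearby genes moved as well. The 52 genes have 98 neighbours that are not members, of which 31 had no count in any library and 51 were tested. edgeR called 0 of the 51, where it called 0.226% of all genes higher and 0.0691% lower. By the unadjusted p it had 7 higher and 3 lower, where the shares over all genes tested were 12.1% and 7.91%. DESeq2 called 8 higher and 0 lower of 57, where it called 6.23% of all genes higher and 3.22% lower. These 8 neighbours were AT1G47400, AT2G14247, AT2G41570, AT5G35970, AT3G28900, AT5G05400, AT3G29590 and AT1G47915. AT5G05400 had 242, 157 and 178 counts in *nol12-4*, against 55, 67 and 73 counts in WT (DESeq2 adjusted p = 5.0e-05; edgeR adjusted p = 0.064). AT3G29590 had 99, 67 and 3, against 0, 9 and 4 (DESeq2 adjusted p = 0.031). AT1G47915 had 15, 4 and 4, against none (DESeq2 adjusted p = 0.0485). Besides AT1G47400 and AT2G14247, AT5G35970, 827 bp upstream of AT5G35965, had 6024, 8639 and 2730 counts in *nol12-4*, against 1341, 1457 and 3123 counts in WT, so that *nol12-4* replicate 3 fell within the WT range. The median log2 fold change of the 51 neighbours was -0.06, and that of all genes tested was -0.01.

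None of the members overlapped another gene on its own strand, and 4 overlapped a gene on the other strand. The nearest upstream gene on the same strand was 13 to 26056 bp away, with a median of 2509 bp, and was under 1 kb away for 14 members. For 28 of the 52 that upstream gene was under 1 CPM in both genotypes.

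Closest paralogs were found for 28 of the 33 members with a protein, 27 genes in all, of which 17 were tested. edgeR called 1 of them higher, AT5G45570, and 0 lower, where it called 0.226% of all genes higher, with 5 higher and 0 lower by the unadjusted p, where 12.1% of all genes were higher. The call of AT5G45570 was lost with any of replicates 1 and 2 of either genotype left out, where edgeR made 0 calls in all. DESeq2 called 4 of 19 higher, namely AT5G45570, *NAC044*, AT5G05600 and AT4G25250, where it called 6.23% of all genes higher. The median log2 fold change was 0.18 over the 17 paralogs and -0.01 over all genes tested.

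The listed genes of DNA methylation and transposon silencing include 3 that counteract silencing, the DNA demethylases *ROS1* and *DME* and the histone demethylase *IBM1*. Of the 27 listed, 26 were tested and edgeR called 0, with 5 higher and 0 lower by the unadjusted p, where 12.1% of all genes tested were higher and 7.91% lower. The median log2 fold change was 0.12, beside -0.01 over all genes tested. *MET1*, which maintains CG methylation, had a log2 fold change of 0.56 ± 0.20 (SE; edgeR adjusted p = 0.188), and *DDM1*, a chromatin remodeller needed for transposon silencing, had 0.70 ± 0.22 (SE; edgeR adjusted p = 0.151). *VIM1*, which binds methylated DNA and acts with MET1, was the furthest up, with 836, 885 and 1037 counts in *nol12-4*, against 390, 429 and 488 counts in WT (log2 fold change 1.06 ± 0.18 SE; edgeR adjusted p = 0.062). DESeq2 called *VIM1* (adjusted p = 1.63e-04) and no other of the 27, where it called 6.23% of all genes higher. The furthest down were *DCL3* (log2 fold change -0.42 ± 0.19 SE; edgeR adjusted p = 0.279) and *CLSY1* (-0.40 ± 0.29 SE; edgeR adjusted p = 0.474), both of the small RNA pathway that directs DNA methylation.

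Loci known to be kept silent by DNA methylation or imprinting had low counts in most cases. Of the 9 listed, 2 had no count in any library and 6, these included, had fewer than 20 counts in every library, among them *FWA* with 7, 5 and 2 counts in *nol12-4*, against 5, 6 and 0 counts in WT. *SDC*, an F-box gene of the DUF295 family released when non-CG methylation is lost, had 58, 29 and 0 counts in *nol12-4*, against 0, 2 and 2 counts in WT, so that *nol12-4* replicate 3 was without a read. It was not tested by edgeR and DESeq2 called it (adjusted p = 0.049). *QQS*, a gene with variable methylation, had 410, 205 and 214 counts in *nol12-4*, against 112, 128 and 80 counts in WT (log2 fold change 1.34 ± 0.33 SE; edgeR adjusted p = 0.098; DESeq2 adjusted p = 0.0054). *MEA*, an imprinted Polycomb gene, lay in the other direction, with 2, 4 and 3 counts in *nol12-4*, against 64, 17 and 25 counts in WT (log2 fold change -3.49 ± 0.72 SE; edgeR adjusted p = 0.075; DESeq2 adjusted p = 0.0012).

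Markers of reproductive tissue were low in these seedlings. Of the 8 pollen genes listed, 4 had no count in any library, among them *VGD1* and *PPME1*, and the summed level was 0.393 to 0.621 CPM in *nol12-4* and 0.521 to 0.820 CPM in WT. Of the 10 seed genes, 4 had no count, among them *SESA1* and *OLEO1*, and the summed level was 0.381 to 0.513 CPM in *nol12-4* and 0.0300 to 0.0746 CPM in WT. The 7 flower genes summed to 4.55 to 7.27 CPM in *nol12-4* and 5.14 to 7.08 CPM in WT. The leaf genes *RBCS1A*, *LHCB1.1*, *LHCB2.1* and *PSAD1* were read in all libraries, with a summed level of 4787 to 8285 CPM in *nol12-4* and 2972 to 3548 CPM in WT. Both tools called 0 of these 4 leaf genes, and edgeR had 4 higher by the unadjusted p, where 12.1% of all genes tested were higher. Of the 7 flower genes, DESeq2 called 1 higher (*AP3*) and 1 lower (*AP1*), where it called 6.23% of all genes higher and 3.22% lower. The part of these cell types in the values of the members was not tested.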

How the data were processed

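RNA-seq was read for 6 libraries, 3 of *nol12-4* and 3 of WT. Per the study's methods, the authors aligned stranded paired-end reads to the TAIR10 genome with HISAT2 (version 2.0.4), sorted them with SAMtools and counted read pairs per Araport11 gene with HTSeq (version 0.6.0), using the strand and no minimum alignment quality. The deposited values are raw counts per gene, without normalization, and read pairs aligned to more than 1 place are not in them, so members with near-identical copies are counted from the remaining pairs. The summary lines of the counter (20.6 to 25.0% of the pairs) name no gene and were left out.

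The members and the gene lists were chosen with earlier results of these data known. All genes were fitted with edgeR 4.0.16 (R 4.3.3), after filterByExpr and with TMM factors, by glmQLFit and a two-sided quasi-likelihood F test of genotype, and p-values were adjusted by Benjamini-Hochberg at 0.05. DESeq2 1.42.0, voom of limma 3.58.1, other size factors, no filter, no organelle genes, a replicate block and leaving out each library were the alternatives. The procedure was tested on simulated data.

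CPM are counts over the effective (TMM) library size. A fold is the ratio of summed counts over summed effective library sizes, with a floor of 3 counts over the WT group where WT had none, and an exact binomial (Clopper-Pearson, 95%) interval where WT had 1 to 3. PCR copies of 1 molecule cannot be recognised here, and so an interval or a floor speaks for the counting error alone. In a single WT library, 3 counts would be 0.0400 to 0.0445 CPM of its gene counts. The floor spreads 3 counts over the 3 WT libraries together and so lies below that.

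Types, products and positions come from the RefSeq annotation of TAIR10.1, matched by gene identifier, and all 36899 nuclear identifiers matched. Its gene models can differ from those used for counting. Direct repeats, copies and paralogs were searched with BLAST (version 2.17.0). A repeat had to enclose at least 80% of the gene within 3000 bp on each side. Members named are the 15 with the highest mean CPM, those with a symbol, and those that share a family or lie near another member. Others were named by role, with their counts. Neighbours and paralogs were named where called by a tool or furthest from 0.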

Additional observations from a re-analysis of the deposited data

How the results depend on the processing

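The number of members depends on the limits and the libraries. With the same limits, leaving out a library can only add genes, so the direction of that change was fixed in advance. It was 52 as reported, 97 with a WT sum of 12 or fewer, 113 with 5 or more and 17 with 20 or more counts in each *nol12-4* library, and 62 to 104 when a library was left out, with 97, 104 and 82 when WT replicate 1, 2 or 3 was the one left out and 92 for *nol12-4* replicate 3.

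The calls over all genes (49 higher and 15 lower in *nol12-4*) rest on the fit. They were 1500 and 776 with DESeq2, 376 and 51 with library size alone, 142 and 41 without a filter, and 1 and 0 with the replicate block. Same-numbered libraries were not shown to be pairs (correlations of their deviations 0.16, -0.11 and 0.03). Leaving out a library gave 0 to 1038 higher and 0 to 601 lower: 0 and 0 for any of replicates 1 and 2 of either genotype, 180 and 284 without WT replicate 3, and 1038 and 601 without *nol12-4* replicate 3.

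Neighbours called higher (0) were 8 with DESeq2, 2 with library size alone and 0 to 7 when a library was left out. Paralogs called higher (1) were 4 with DESeq2, 3 with library size alone, 0 with the replicate block and 0 to 3 when a library was left out. Silencing genes called higher (0) were 1 with DESeq2, 1 with library size alone and 0 to 1 when a library was left out, and their median log2 fold change (0.12) was 0.22 with library size alone, which moved the median of all genes to 0.09, and ranged over 0.054 to 0.22 when a library was left out. Silent loci called (0) were 2 higher and 1 lower with DESeq2 and 0 to 2 higher when a library was left out. No median is given for them, since 2 of 9 were tested. The pseudogenes outside the set (3 higher, 0 lower), a list added after the values were seen, had 34 and 9 with DESeq2, 9 and 0 with library size alone, 0 and 0 with the replicate block, and 0 to 11 higher and 0 to 3 lower when a library was left out. The causes were not tested.

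The rule of choice fixes the sign of the members' fitted log2 fold changes, so only their size can change. It moved by more than the spread of the *nol12-4* libraries in 100 of 611 values (47 members tested, 13 alternatives).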
